A study of Mus musculus with 6 samples.

Results

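The CC chemokines that attract monocytes are represented here by 8 mouse genes, Ccl2, Ccl3, Ccl4, Ccl6, Ccl7, Ccl8, Ccl9 and Ccl12, chosen by name out of 55023 genes in the deposited table. All 8 passed the filter on low counts and were tested. They were measured by RNA sequencing in bone marrow-derived macrophages, which are primary macrophages grown from marrow precursors in culture. The cultures were kept for 24 h with LCL161 plus LTα1β2, with LTα1β2 alone, or with vehicle, with 2 libraries in each group. LTα1β2 is the membrane-bound lymphotoxin trimer recognised by the lymphotoxin beta receptor. LCL161 is a small molecule that antagonises the ubiquitin ligases cIAP1 and cIAP2. All 3 groups share the same cell source, and none of them received LCL161 alone. A difference between LCL161 plus LTα1β2 and LTα1β2 is therefore known only in the presence of the ligand. The labels do not say that the replicates were separate cultures or animals. A p-value here therefore reflects only how far these libraries spread, and that spread may be technical.

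Chemokines are small secreted proteins that guide leukocytes along a concentration gradient. Their receptors couple to inhibitory G proteins and set off cytoskeletal rearrangement. In the CC subfamily the first pair of conserved cysteines is adjacent, and many of its genes lie in clusters on the chromosome. Monocytes leave the marrow through Ccr2 and its ligands, and macrophages both release CC chemokines at inflamed sites and respond to them through receptors such as Ccr1.

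Libraries held 14718368 to 19049613 reads, and 3 reads, the smallest number taken as a signal, corresponded to 0.139 to 0.23 CPM in them. CPM are reads scaled to a common library size, here by the trimmed mean of M values (TMM). Tests are edgeR's two-sided quasi-likelihood test over 18812 genes with Benjamini-Hochberg adjustment, and a gene is said to have risen or fallen only where the adjusted p was below 0.05. Markers of macrophages were abundant in every library, with a summed level of 32483 and 34168 CPM with LCL161 plus LTα1β2, 33100 and 32411 CPM with LTα1β2, and 27465 and 33875 CPM with vehicle. Lyz2, the lysozyme of macrophages, made up most of these sums and passed the test in none of the comparisons. Of the 8 markers, 2 rose and 3 fell with LCL161 plus LTα1β2 against LTα1β2, 4 rose and 1 fell with both agents against vehicle, and 6 rose and none fell with LTα1β2 against vehicle. Their median log2 fold changes were 0.0051, 0.58 and 0.52. Over all tested genes, 10.6% rose and 15.1% fell, 18.4% rose and 21.1% fell, and 12.8% rose and 10.6% fell in these comparisons. The cultures also held transcripts of stromal cells. The 10 stromal markers summed to 586 and 657 CPM with LCL161 plus LTα1β2, to 2193 and 3103 CPM with LTα1β2, and to 8257 and 5511 CPM with vehicle. Col1a1, a chain of type I collagen, is among them. In each comparison 7 of the 9 tested markers fell, and none of the 10 was at 0 in all 6 libraries. Stromal cells can also make chemokines, and the part of this shift in the results below was not tested.

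The 8 genes lie on the minus or plus strand of chromosome 11 in GRCm38, in 2 runs that are 1456 kb apart. The first run spans 81.2 kb and holds Ccl2 (chr11:82035571-82037453), Ccl7 (chr11:82045712-82047525), Ccl12 (chr11:82101845-82103400) and Ccl8 (chr11:82115185-82116799), all on the plus strand. The second run spans 91.8 kb and holds Ccl9 (chr11:83572919-83578636), Ccl6 (chr11:83587882-83593087) and Ccl3 (chr11:83647844-83649355) on the minus strand and Ccl4 (chr11:83662584-83664683) on the plus strand. In the GENCODE M21 annotation no exon of these genes overlaps an exon of another gene on either strand. No 50-base stretch of their transcripts recurred in another gene, except for 59 of 2957 stretches in Ccl9 (2.00%), none of them shared with another of the 8 genes. Ccl3, Ccl4, Ccl6 and Ccl9 had counts that were not whole in 2 or 3 libraries each. How reads with several matches were divided is not given in the sources used here, so their counts carry that uncertainty.

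The start sites of Ccl8 and Ccl12, which are neighbours and had the largest increases of the 8 genes over vehicle, and of Ccl9 and Ccl3, which moved in opposite directions in the successive comparisons, are shown with the 250 bases before them, 5′ to 3′ on the strand of the gene. The sequences are RefSeq's for GRCm38.p6, where 5 of the 8 genes had an entry. Capitals mark every match to 6 motifs searched on both strands.
Ccl8, chr11:82114935-82115184, plus strand: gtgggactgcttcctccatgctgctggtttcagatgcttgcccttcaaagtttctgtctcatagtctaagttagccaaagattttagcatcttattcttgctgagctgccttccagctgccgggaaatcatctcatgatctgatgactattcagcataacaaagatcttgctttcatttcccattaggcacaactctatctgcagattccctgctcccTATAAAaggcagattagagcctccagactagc
Ccl12, chr11:82101595-82101844, plus strand: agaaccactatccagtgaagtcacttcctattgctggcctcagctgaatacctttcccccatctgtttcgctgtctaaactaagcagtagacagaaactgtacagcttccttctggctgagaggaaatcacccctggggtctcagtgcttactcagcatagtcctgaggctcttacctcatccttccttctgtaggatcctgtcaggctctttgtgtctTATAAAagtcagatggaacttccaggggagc
Ccl9, chr11:83578637-83578886, minus strand: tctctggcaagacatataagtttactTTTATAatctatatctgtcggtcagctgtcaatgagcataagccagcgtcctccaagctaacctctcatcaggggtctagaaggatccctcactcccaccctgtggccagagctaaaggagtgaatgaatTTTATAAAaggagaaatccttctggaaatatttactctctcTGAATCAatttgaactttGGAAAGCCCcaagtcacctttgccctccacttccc
Ccl3, chr11:83649379-83649628, minus strand: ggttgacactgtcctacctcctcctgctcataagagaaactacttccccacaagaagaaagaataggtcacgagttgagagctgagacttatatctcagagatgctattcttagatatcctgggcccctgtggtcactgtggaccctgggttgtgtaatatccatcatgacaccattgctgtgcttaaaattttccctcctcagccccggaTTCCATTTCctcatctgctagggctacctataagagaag

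In the Ccl8 and Ccl12 windows the single match was the TATA-type motif TATAAA, 32 to 27 and 31 to 26 bases before the start. The Ccl9 window held the AP-1-type motif TGANTCA at 53 to 47 bases and the kB-type motif GGNNTTTCC, read on the opposite strand, at 35 to 27 bases. It also held 3 TATA-type matches, of which the pair between 94 and 87 bases overlap. The Ccl3 window held the interferon-type motif GAAANNGAA on the opposite strand at 39 to 31 bases before RefSeq's start. That window reaches down to chr11:83649379, whereas the GENCODE M21 gene given above begins, on its minus strand, at chr11:83649355. The starts of Ccl3 thus differ between these annotations, and the distance holds for RefSeq's only. The GAS-type motif TTCNNNGAA and the C/EBP-type motif TTGCNNAA had no match in these windows, and the window of Ccl6 held none of the 6 motifs. Among 32851 RefSeq windows of the same length, 12.4% held the TATA-type, 6.75% the AP-1-type, 4.93% the kB-type, 7.13% the interferon-type, 7.02% the GAS-type and 9.56% the C/EBP-type motif. These are matches of letters only.

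LCL161 plus LTα1β2 against LTα1β2 addresses what the cIAP antagonist adds. Ccl3, Ccl4 and Ccl9 rose and Ccl6 fell, while Ccl2, Ccl7, Ccl8 and Ccl12 did not pass the test. The 3 genes that rose were 3.86 to 5.47 times as high. Of all tested genes 10.6% were called higher and 15.1% lower. LCL161 plus LTα1β2 against vehicle addresses the sum of both agents. There Ccl2, Ccl3, Ccl4, Ccl8 and Ccl12 rose, Ccl6 fell, and Ccl7 and Ccl9 did not pass, against 18.4% of tested genes called higher and 21.1% lower. LTα1β2 against vehicle addresses the ligand by itself. Ccl2, Ccl8 and Ccl12 rose, Ccl3, Ccl6 and Ccl9 fell, and Ccl4 and Ccl7 did not pass, against 12.8% of tested genes called higher and 10.6% lower. The median log2 fold change of the 8 genes was 0.56 for LCL161 plus LTα1β2 over LTα1β2, 1.29 for LCL161 plus LTα1β2 over vehicle and 0.07 for LTα1β2 over vehicle. Over all tested genes it was 0.0045, 0.05 and -0.04 in the same comparisons. The 3 comparisons share libraries and are not independent of each other.

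**Figure D1:**
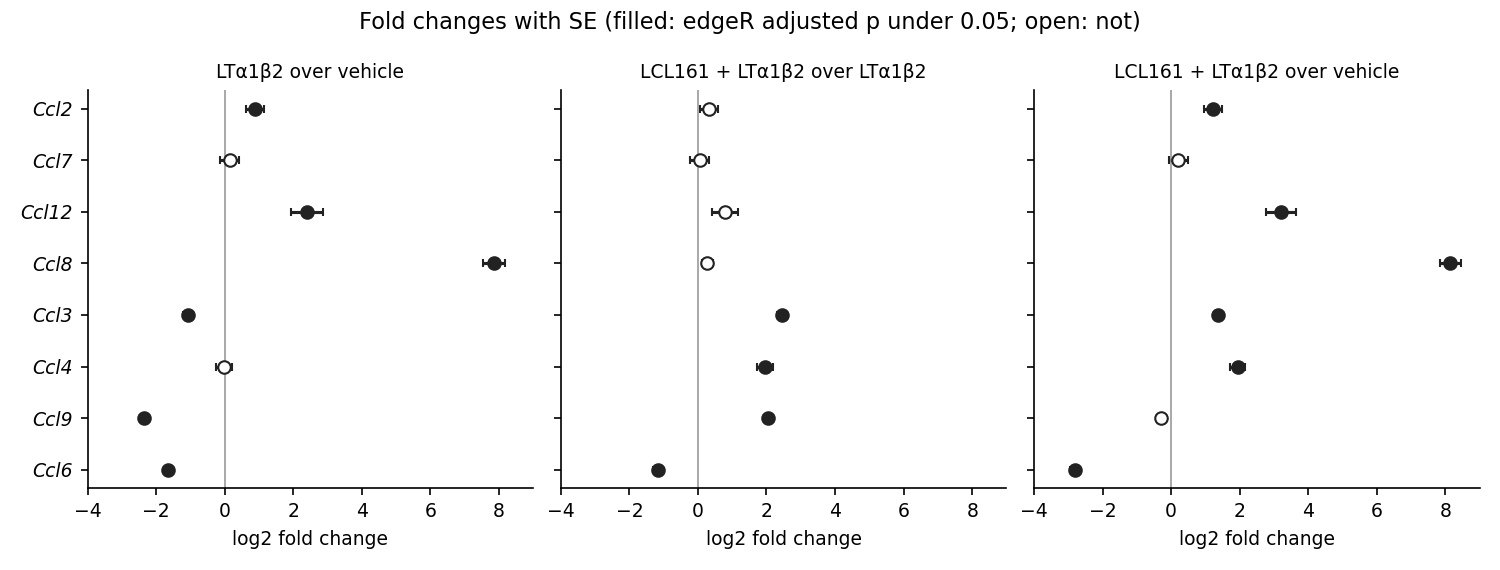
log2 fold changes (edgeR) of the 8 chemokine genes in the 3 comparisons, with bars of 1 SE and filled symbols where the adjusted p was below 0.05. Ccl3, Ccl4 and Ccl9 stand above 0 for LCL161 plus LTα1β2 over LTα1β2 (1.95 to 2.45), Ccl6 stands below 0 in all 3, and Ccl8 reaches 8.14 over vehicle, where vehicle held 2 reads in all.

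Ccl3 and Ccl4, also called macrophage inflammatory proteins 1-alpha and 1-beta, attract monocytes and macrophages, and Ccl3 is a ligand of Ccr1. Ccl3 had 43.3 and 44.4 CPM with LCL161 plus LTα1β2, 7.24 and 8.71 CPM with LTα1β2, and 17.7 and 16.3 CPM with vehicle. The 3 groups did not overlap, and vehicle lay between the other two. Ccl3 averaged 43.8 ± 0.786 CPM with LCL161 plus LTα1β2 and 7.98 ± 1.04 CPM with LTα1β2 (SD, n = 2 each), a log2 fold change of 2.45 (SE 0.14, adjusted p = 4.96e-05). Against the vehicle mean of 17.0 ± 0.984 CPM (SD, n = 2) it was 1.37 higher on the log2 scale with both agents (SE 0.13, adjusted p = 0.00012). With LTα1β2 alone Ccl3 fell by 1.08 against vehicle (SE 0.14, adjusted p = 0.00146). Its direction thus differed between the ligand alone and the ligand with the antagonist.

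Ccl4 had 40.0 and 48.2 CPM with LCL161 plus LTα1β2, 8.90 and 13.8 CPM with LTα1β2, and 13.03 and 9.94 CPM with vehicle. Both libraries with the antagonist lay above all 4 others, and the LTα1β2 and vehicle libraries overlapped. It averaged 44.1 ± 5.82, 11.3 ± 3.46 and 11.5 ± 2.18 CPM in these groups (SD, n = 2 each). The log2 fold change was 1.95 over LTα1β2 (SE 0.23, adjusted p = 0.000904) and 1.94 over vehicle (SE 0.23, adjusted p = 0.000383), while LTα1β2 over vehicle gave -0.01 (SE 0.23, adjusted p = 0.977). Ccl3 and Ccl4 are separated by 13.2 kb and are transcribed on opposite strands.

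Ccl6 and Ccl9 are mouse chemokines of the same cluster that signal through Ccr1, and both are made by resting macrophages. Ccl9 is also known as macrophage inflammatory protein 1-gamma and acts on osteoclast precursors. Ccl9 had 128 and 108 CPM with LCL161 plus LTα1β2, 28.7 and 28.3 CPM with LTα1β2, and 155 and 135 CPM with vehicle. The LTα1β2 libraries lay far below the other 4, and those with the antagonist lay just under those with vehicle. The means were 118 ± 14.1, 28.5 ± 0.224 and 145 ± 14.6 CPM (SD, n = 2 each). Ccl9 fell by 2.35 with LTα1β2 against vehicle (SE 0.13, adjusted p = 2.01e-05) and rose by 2.05 when LCL161 was present (SE 0.13, adjusted p = 7.3e-05). LCL161 plus LTα1β2 over vehicle gave -0.30 (SE 0.12, adjusted p = 0.083). Over 14 alternative settings that value lay between -0.61 and -0.24 with adjusted p of 0.00892 to 0.265. It passed the threshold when libraries were scaled by total counts (-0.61) and without LCL161 plus LTα1β2 replicate 1 (-0.44, adjusted p = 0.0366). The 6 osteoclast markers summed to 143 and 148 CPM with LCL161 plus LTα1β2, 72.3 and 67.6 CPM with LTα1β2, and 136 and 140 CPM with vehicle. Of the 5 tested, 3 fell and 1 rose with LTα1β2 against vehicle, and 3 rose and 1 fell when LCL161 was added. With both agents against vehicle 3 rose and 2 fell, so the similar sums of these groups were made up differently. Over all tested genes, 12.8% rose and 10.6% fell, 10.6% rose and 15.1% fell, and 18.4% rose and 21.1% fell in these comparisons. Dcstamp averaged 43.9 CPM with both agents and 4.23 CPM with vehicle, and Atp6v0d2 averaged 33.5 and 76.8 CPM. None of the 6 markers was at 0 in all libraries, and their part in the values of Ccl9 was not tested.

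Ccl6 fell in all 3 comparisons. It had 21.5 and 20.7 CPM with LCL161 plus LTα1β2, 53.0 and 41.1 CPM with LTα1β2, and 139 and 155 CPM with vehicle. The groups were fully separated. The means were 21.1 ± 0.565, 47.0 ± 8.43 and 147 ± 11.3 CPM (SD, n = 2 each), so that Ccl6 was 6.96-fold lower with both agents than with vehicle. On the log2 scale it fell by 1.16 with LCL161 plus LTα1β2 against LTα1β2 (SE 0.14, adjusted p = 0.00114), by 2.80 with both agents against vehicle (SE 0.15, adjusted p = 6.52e-06) and by 1.64 with LTα1β2 against vehicle (SE 0.14, adjusted p = 0.000198). In bulk RNA such as this, fewer cells of a type and less RNA per cell cannot be told apart. The stromal markers were lower in the same order. Of the 8 macrophage markers, 2 rose and 3 fell with LCL161 plus LTα1β2 against LTα1β2. Against vehicle, 4 rose and 1 fell with both agents, and 6 rose and none fell with LTα1β2. Shares of all tested genes were 10.6% higher and 15.1% lower, 18.4% and 21.1%, and 12.8% and 10.6% in these comparisons. The part of either in the values of Ccl6 was not tested.

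**Figure D2:**
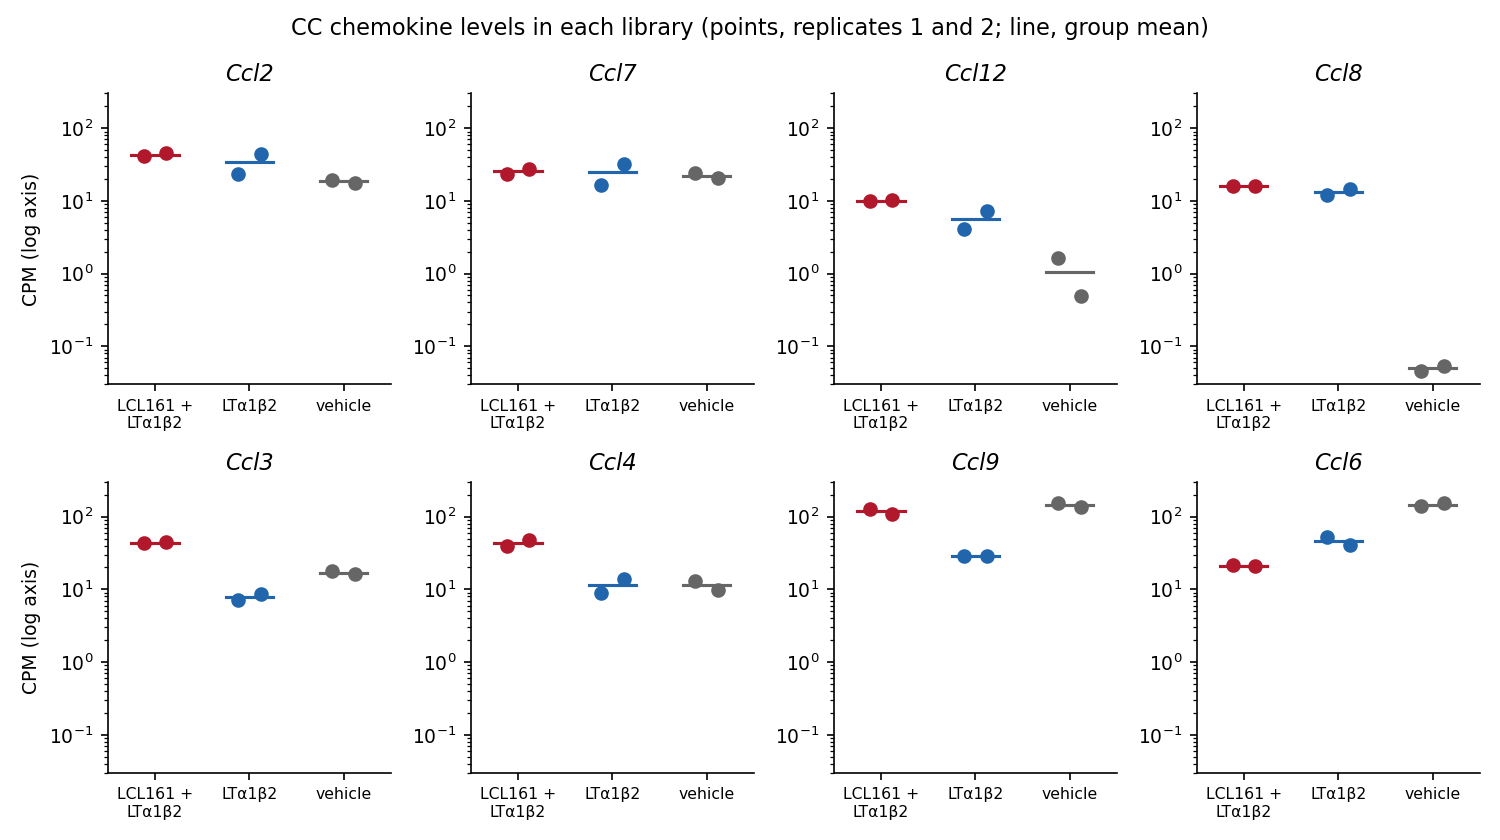
CPM of each of the 8 chemokine genes in every library on a log axis, with LCL161 plus LTα1β2 left, LTα1β2 in the middle and vehicle right. Points are libraries and lines are group means (n = 2). Ccl9 is lowest in the 2 LTα1β2 libraries (28.3 and 28.7 CPM), and Ccl8 drops to 1 read per library in vehicle.

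Ccl2, Ccl7 and Ccl12 are the monocyte chemoattractant proteins that act through Ccr2, and Ccl2 is the best known attractant of inflammatory monocytes. Ccl12 had 9.85 and 10.2 CPM with LCL161 plus LTα1β2, 4.15 and 7.27 CPM with LTα1β2, and 1.62 and 0.486 CPM with vehicle. The libraries did not overlap between groups, although those with LTα1β2 and those with vehicle were each far apart. The means were 10.02 ± 0.237, 5.71 ± 2.21 and 1.05 ± 0.802 CPM (SD, n = 2 each). Ccl12 rose with both agents against vehicle (log2 fold change 3.20, SE 0.45, adjusted p = 0.000953) and with LTα1β2 against vehicle (2.40, SE 0.46, adjusted p = 0.00865). LCL161 plus LTα1β2 over LTα1β2 gave 0.80 (SE 0.37, adjusted p = 0.152). Over 14 alternatives the change with LTα1β2 lay between 1.82 and 3.54 with adjusted p up to 0.0548. That highest p came without LTα1β2 replicate 2, where the change was 1.92. Both changes moved with the vehicle library left out. Without vehicle replicate 1 they were 4.29 with both agents and 3.54 with LTα1β2, and without vehicle replicate 2 they were 2.57 and 1.82.

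Ccl2 had 41.4 and 44.9 CPM with LCL161 plus LTα1β2, 23.7 and 44.8 CPM with LTα1β2, and 19.4 and 17.7 CPM with vehicle. One LTα1β2 library reached the level seen with the antagonist and the other lay close to vehicle. Ccl2 averaged 43.2 ± 2.43 CPM with LCL161 plus LTα1β2 and 18.6 ± 1.21 CPM with vehicle (SD, n = 2 each), a log2 fold change of 1.21 (SE 0.26, adjusted p = 0.00859), which without vehicle replicate 2 was 1.10 (adjusted p = 0.0602, the highest of 14 alternatives). With LTα1β2 it averaged 34.2 ± 14.9 CPM (SD, n = 2), a log2 fold change of 0.88 over vehicle (SE 0.26, adjusted p = 0.0468). This call held in 8 of 14 alternatives, and over all 14 the change lay between 0.34 and 1.35. The call was lost without LTα1β2 replicate 2 (0.34), without vehicle replicate 1 (0.95) and without vehicle replicate 2 (0.82). It was also lost with total-count scaling (0.69, adjusted p = 0.0819), with a replicate block (0.83, adjusted p = 0.0571) and with limma voom (0.83, adjusted p = 0.0558). LCL161 plus LTα1β2 over LTα1β2 gave 0.33 (SE 0.26, adjusted p = 0.37), and the libraries overlapped. That value passed the threshold without LTα1β2 replicate 2 (0.83, adjusted p = 0.0216) and was -0.12 without LTα1β2 replicate 1.

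Ccl7, which also binds Ccr1 and Ccr3, had 23.8 and 27.6 CPM with LCL161 plus LTα1β2, 16.7 and 32.5 CPM with LTα1β2, and 23.9 and 20.4 CPM with vehicle. All 3 groups overlapped. The means were 25.7 ± 2.68, 24.6 ± 11.2 and 22.2 ± 2.48 CPM (SD, n = 2 each). The log2 fold changes were 0.06 over LTα1β2 (SE 0.28, adjusted p = 0.9) and 0.21 over vehicle (SE 0.28, adjusted p = 0.575) for both agents, and 0.15 for LTα1β2 over vehicle (SE 0.28, adjusted p = 0.745). Their signs depend on the scaling, since all 3 were below 0 with total-count scaling (-0.068, -0.11 and -0.039). The gap between the LTα1β2 libraries was about as wide for Ccl7 as for Ccl2, its neighbour at 8.26 kb. Replicate 2 was the higher library for Ccl2, Ccl3, Ccl4, Ccl7, Ccl8 and Ccl12 alike. The stromal markers also summed higher in LTα1β2 replicate 2 (3103 CPM) than in replicate 1 (2193 CPM), and their part in this gap was not tested. Of all tested genes, 337 differed by more than 4-fold between the LTα1β2 libraries, against 127 between those with LCL161 plus LTα1β2 and 138 between those with vehicle. Another measure, the chi-square per degree of freedom between replicate counts, was lowest for LTα1β2. It was 4.76 for LTα1β2, 6.11 for LCL161 plus LTα1β2 and 8.06 for vehicle, and abundant genes weigh most in it. Which replicates lay furthest apart thus depends on the measure.

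Ccl8 is the fourth chemoattractant of this group by name, and in mice it is known as a ligand of Ccr8. It had 16.0 and 16.2 CPM with LCL161 plus LTα1β2, 11.9 and 14.6 CPM with LTα1β2, and 0.0463 and 0.054 CPM with vehicle, where each library held 1 read. Vehicle was thus under the limit of 3 reads, while the treated libraries held 187 to 274 reads. The reads of Ccl8 over both libraries gave a ratio of 323 for LCL161 plus LTα1β2 (431 reads) to vehicle (2 reads), with an exact 95% interval of 88.9 to 2675. For LTα1β2 (461 reads) to vehicle the ratio was 269, with an interval of 74.0 to 2227. These intervals cover counting error only. edgeR's fitted log2 fold changes, which with so few reads depend on the prior count, were 8.14 (SE 0.31, adjusted p = 1.72e-06) and 7.86 (SE 0.31, adjusted p = 4.7e-06). These SE are smaller than the counting error of 2 reads. Ccl8 averaged 16.1 ± 0.181 CPM with LCL161 plus LTα1β2 and 13.3 ± 1.92 CPM with LTα1β2 (SD, n = 2 each). That difference was 0.27 on the log2 scale (SE 0.15, adjusted p = 0.215), although both libraries with the antagonist were the higher. Between groups the stromal markers were lowest where Ccl8 was highest, but within the LTα1β2 group replicate 2 was the higher library for both. The part of stromal cells in the values of Ccl8 was not tested.

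**Figure D3:**
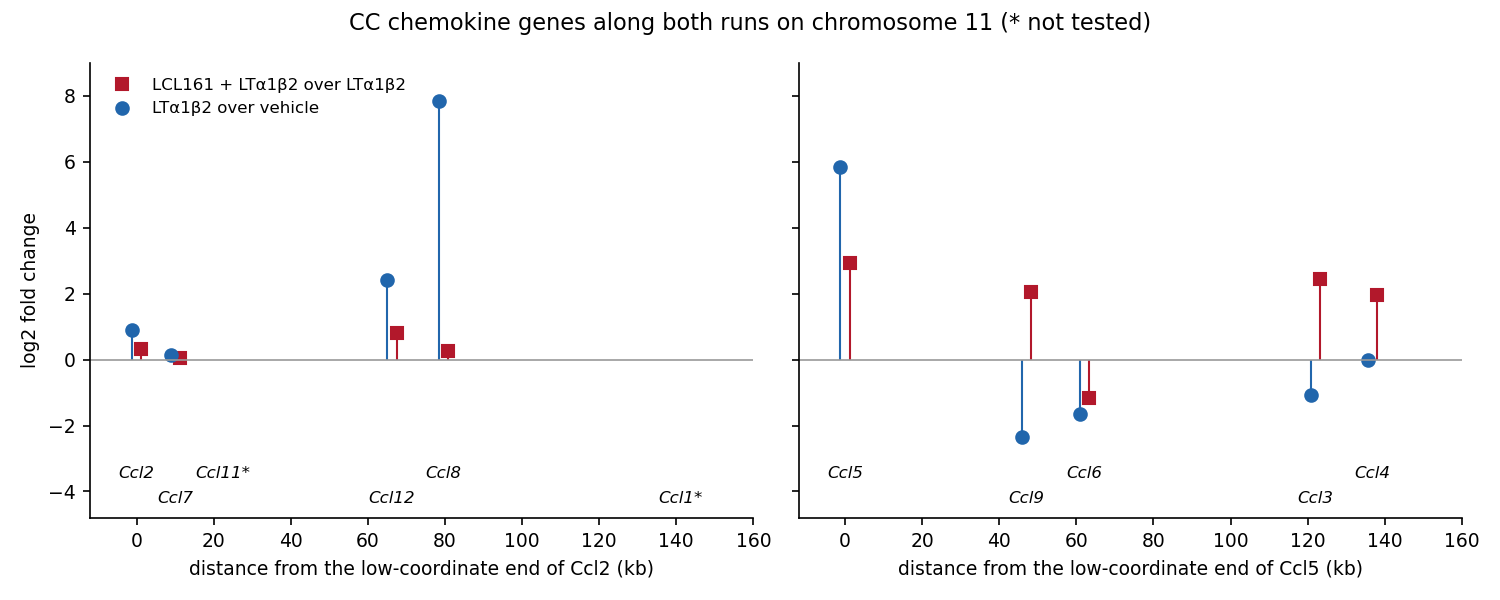
The 2 runs of CC chemokine genes on chromosome 11, with distance in kb from the low-coordinate end of Ccl2 (left) or Ccl5 (right) on the horizontal axis and the log2 fold change (edgeR) on the vertical axis. Squares are LCL161 plus LTα1β2 over LTα1β2 and circles LTα1β2 over vehicle, set slightly apart at each gene. Neighbours differ in direction: Ccl6, 9.25 kb from Ccl9, fell by 1.16 with LCL161 plus LTα1β2 against LTα1β2, whereas Ccl9 rose by 2.05.

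Neighbouring genes of the 2 runs did not all move alike. In the first run Ccl8 and Ccl12, 11.8 kb apart, rose with LTα1β2 against vehicle and Ccl7 did not pass. Ccl11, between Ccl7 and Ccl12, had 0 reads in all 6 libraries, and Ccl1, at the end of the run, had 0 to 5. In the second run Ccl3, Ccl6 and Ccl9 fell with LTα1β2 against vehicle, and Ccl4 did not pass. With LCL161 plus LTα1β2 against LTα1β2, Ccl3, Ccl4 and Ccl9 rose and Ccl6, which lies between Ccl9 and Ccl3, fell. Ccl5, the next chemokine gene beside Ccl9 and a ligand of Ccr1 and Ccr3, had 1210 and 1443 CPM with LCL161 plus LTα1β2, 141 and 210 CPM with LTα1β2, and 2.92 and 3.13 CPM with vehicle. It rose by 2.92 on the log2 scale over LTα1β2 (SE 0.20, adjusted p = 0.000101) and by 8.77 over vehicle with both agents (SE 0.27, adjusted p = 7.11e-07), and by 5.86 with LTα1β2 over vehicle (SE 0.24, adjusted p = 5.68e-06).

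Levels of different genes can be set side by side only per length, and CPM were therefore divided by the exon length of each gene, 511 bases for Ccl8 to 3006 bases for Ccl9. With LCL161 plus LTα1β2, Ccl4 was the highest at 66.8 ± 8.81 CPM per kb (SD, n = 2), followed by Ccl3 (57.2 ± 1.03), Ccl2 (53.1 ± 2.99) and Ccl9 (39.2 ± 4.70). Ccl7 (32.1 ± 3.34) and Ccl8 (31.5 ± 0.35) overlapped, and Ccl12 (18.7 ± 0.44) and Ccl6 (14.6 ± 0.39) came last. Apart from that overlap each neighbour in the order was separated by its libraries. In the LTα1β2 libraries the order was less sharp. Ccl2 (42.1 ± 18.4 CPM per kb), Ccl6 (32.7 ± 5.85), Ccl7 (30.7 ± 13.9) and Ccl8 (26.0 ± 3.76) followed each other with overlapping libraries, as did Ccl4 (17.2 ± 5.24), Ccl12 (10.6 ± 4.11), Ccl3 (10.4 ± 1.36) and Ccl9 (9.48 ± 0.07) below them. With vehicle, Ccl6 was highest at 102 ± 7.83 CPM per kb, then Ccl9 (48.3 ± 4.87) and Ccl7 (27.7 ± 3.09). Ccl2 (22.9 ± 1.49) and Ccl3 (22.1 ± 1.29) overlapped, and Ccl4 (17.4 ± 3.31), Ccl12 (1.96 ± 1.49) and Ccl8 (0.10 ± 0.01) followed in separated steps.

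The 8 genes together summed to 304.8 and 321.6 CPM per kb with LCL161 plus LTα1β2, 150.3 and 208.1 CPM per kb with LTα1β2, and 247.7 and 236.8 CPM per kb with vehicle. The sum was thus lowest with LTα1β2 alone, and the make-up of the sum differed more than its size. Without division by length the sums were 324 and 320 CPM with LCL161 plus LTα1β2 and 154 and 191 CPM with LTα1β2. Those with vehicle were then 370 and 354 CPM. LTα1β2 was again lowest, but the order of vehicle and LCL161 plus LTα1β2 was reversed. Ccl6 made up a mean of 4.68% of the per-length sum with LCL161 plus LTα1β2, 19.1% with LTα1β2 and 42.1% with vehicle. Ccl3 and Ccl4 made up 18.3% and 21.3% with LCL161 plus LTα1β2, 5.88% and 9.51% with LTα1β2, and 9.14% and 7.17% with vehicle. The share of Ccl8 was 10.1% with LCL161 plus LTα1β2, 14.65% with LTα1β2 and 0.04% with vehicle, and that of Ccl9 was 12.6%, 5.43% and 19.9% in these groups.

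**Figure D4:**
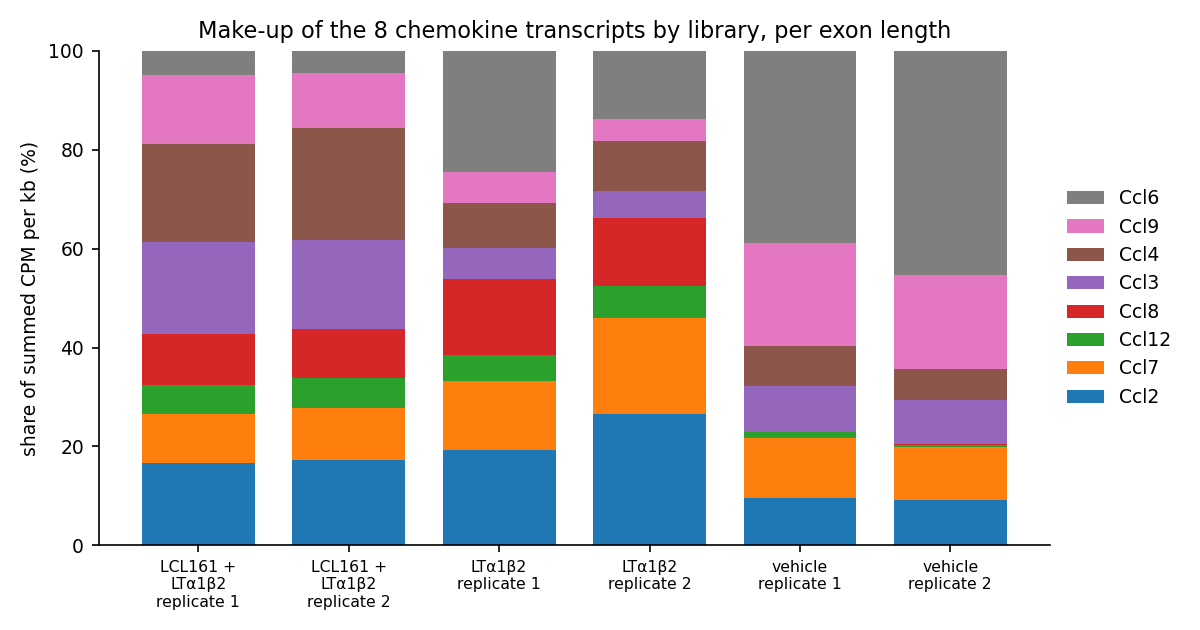
Share of each of the 8 chemokine genes in their summed CPM per kb in every library, with the libraries of LCL161 plus LTα1β2 first, then LTα1β2, then vehicle. Ccl6 takes 38.9% and 45.3% of the sum in the vehicle libraries and 4.89% and 4.47% in those with LCL161 plus LTα1β2.

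Among receptors of these ligands, Ccr1, Ccr2 and Ccr3 fell with LCL161 plus LTα1β2 against LTα1β2. With both agents against vehicle, Ccr3 fell, and Ccr1 and Ccr2 did not pass. With LTα1β2 against vehicle, Ccr1 and Ccr2 rose and Ccr3 fell. The scavenging receptors Ackr1 and Ackr2 had at most 6 reads in any library and were not tested.

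Ccr1, which binds Ccl3, Ccl6, Ccl7 and Ccl9, had 22.7 and 22.8 CPM with LCL161 plus LTα1β2, 49.3 and 41.8 CPM with LTα1β2, and 25.7 and 23.2 CPM with vehicle. It fell by 0.9997 with LCL161 plus LTα1β2 against LTα1β2 (SE 0.13, adjusted p = 0.00131) and rose by 0.90 with LTα1β2 against vehicle (SE 0.13, adjusted p = 0.00231). Both agents against vehicle gave -0.10 (adjusted p = 0.548, with 0.0399 to 0.776 over 14 alternatives, where only total-count scaling passed, at -0.42). Ccr3, an eosinophil receptor that Ccl7 also binds, had 1.86 and 2.53 CPM with LCL161 plus LTα1β2, 4.59 and 4.33 CPM with LTα1β2, and 10.2 and 10.6 CPM with vehicle. Mcpt8, the 1 tested marker of mast cells and basophils, averaged 0.633, 0.864 and 3.54 CPM in these groups. The part of such cells in the Ccr3 values was not tested. Ccr3 fell in each comparison, by 1.01 against LTα1β2 (SE 0.21, adjusted p = 0.0116) and by 2.23 against vehicle with both agents (SE 0.20, adjusted p = 8.41e-05), and by 1.22 with LTα1β2 against vehicle (SE 0.18, adjusted p = 0.00265). The first of these calls was lost without LCL161 plus LTα1β2 replicate 1 (-0.84, adjusted p = 0.0557, the highest of 14 alternatives).

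Ccr2, the receptor of Ccl2, Ccl7 and Ccl12 on monocytes, had 5.47 and 6.01 CPM with LCL161 plus LTα1β2, 16.2 and 10.9 CPM with LTα1β2, and 5.30 and 8.11 CPM with vehicle. Ccr2 fell by 1.24 with LCL161 plus LTα1β2 against LTα1β2 (SE 0.27, adjusted p = 0.0141) and rose by 1.02 with LTα1β2 against vehicle (SE 0.26, adjusted p = 0.0262). The fall was lost without LTα1β2 replicate 1 (-0.995, adjusted p = 0.0522, the highest of 14 alternatives). The rise was lost without that library (0.79, adjusted p = 0.125) and without vehicle replicate 1 (0.73, adjusted p = 0.159, the highest of 14 alternatives). LCL161 plus LTα1β2 over vehicle gave -0.22 (adjusted p = 0.554), and the libraries overlapped. The 5 monocyte markers summed to 170 and 169 CPM with LCL161 plus LTα1β2, 310 and 237 CPM with LTα1β2, and 225 and 341 CPM with vehicle. Of these 5, 4 fell and none rose with LCL161 plus LTα1β2 against LTα1β2. Against vehicle, 1 rose and 2 fell with both agents, and 2 rose and 1 fell with LTα1β2. Shares of all tested genes were 10.6% higher and 15.1% lower, 18.4% and 21.1%, and 12.8% and 10.6% in these comparisons. The sums hide opposite moves: Ly6c2 averaged 64.1 CPM with LTα1β2 and 8.75 CPM with vehicle, and F13a1 averaged 8.50 and 151 CPM. None of the 5 markers was at 0 in all libraries, and their part in the Ccr2 values was not tested. The 6 neutrophil markers summed to 70.7 and 96.7 CPM with LCL161 plus LTα1β2, 402 and 323 CPM with LTα1β2, and 257 and 424 CPM with vehicle.

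**Figure D5:**
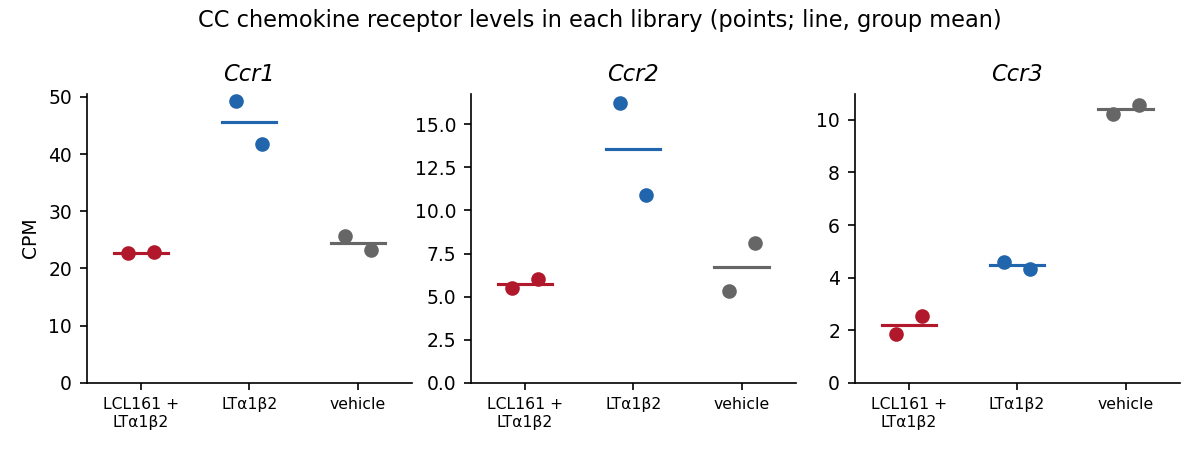
CPM of the chemokine receptors Ccr1, Ccr2 and Ccr3 in every library on linear axes that start at 0 and differ between panels, with LCL161 plus LTα1β2 left, LTα1β2 in the middle and vehicle right. Points are libraries and lines are group means (n = 2). Ccr1 and Ccr2 are highest in the 2 LTα1β2 libraries, and Ccr3 is highest with vehicle.

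Among 12 other CC chemokine genes, 6 were tested. With LCL161 plus LTα1β2, 2 rose and none fell against LTα1β2, and 2 rose and 1 fell against vehicle. With LTα1β2 against vehicle, 2 rose and none fell. Over all tested genes, 10.6% rose and 15.1% fell, 18.4% rose and 21.1% fell, and 12.8% rose and 10.6% fell in these comparisons. The medians of the 6 were 0.86, 0.35 and -0.26. Apart from Ccl5, the gene that rose was Ccl22, which encodes a ligand of Ccr4 on T cells and lies on chromosome 8. Ccl22 had 31.9 and 36.8 CPM with LCL161 plus LTα1β2, 0.574 and 0.374 CPM with LTα1β2, and 0.0926 and 0.054 CPM with vehicle. It rose by 6.18 against LTα1β2 (adjusted p = 1.14e-05). Its reads gave a ratio of 459 for LCL161 plus LTα1β2 (918 reads) to vehicle (3 reads), with an exact 95% interval of 156 to 2228. For LTα1β2 (16 reads) to vehicle the ratio was 6.22, with an interval of 1.78 to 33.3. The call in that last comparison (adjusted p = 0.0138, 0.00472 to 0.113 over 13 alternatives) was lost without vehicle replicate 1, vehicle replicate 2 or LTα1β2 replicate 1, where the fitted log2 fold changes were 2.93, 2.24 and 2.29, and with limma voom (2.31). Ccl17, the neighbour of Ccl22 and also a ligand of Ccr4, was the gene that fell with both agents against vehicle. It had 0.292 and 0 CPM with LCL161 plus LTα1β2 and 1.53 and 1.59 CPM with vehicle (-3.34, adjusted p = 0.0129). This call was lost without vehicle replicate 1 (-3.43, adjusted p = 0.0506) or replicate 2 (-3.35, adjusted p = 0.051, the highest of 14 alternatives). With 4 and 0 reads under LCL161 plus LTα1β2, the fitted value was -7.79 without replicate 1 of that group and -2.47 without replicate 2.

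Transcription of these chemokines is known to depend on NF-kB, interferon-regulated factors and C/EBP proteins, and the mRNAs of several are cleared by RNA-binding proteins. In a list of 16 such regulators, 5 rose and 3 fell with LCL161 plus LTα1β2 against LTα1β2, 10 rose and 2 fell with both agents against vehicle, and 6 rose and none fell with LTα1β2 against vehicle. Of all tested genes, 10.6% rose and 15.1% fell, 18.4% rose and 21.1% fell, and 12.8% rose and 10.6% fell in these comparisons. The median log2 fold changes of the list were 0.13, 1.05 and 0.34. Irf1, an interferon-induced transcription factor, had 1068 and 1173 CPM with LCL161 plus LTα1β2, 945 and 1034 CPM with LTα1β2, and 42.2 and 45.6 CPM with vehicle. The treated groups lay close together, as they did for Ccl8. Irf1 rose by 4.68 with both agents (adjusted p = 3.83e-07) and by 4.50 with LTα1β2 (adjusted p = 5.92e-07) over vehicle, and LCL161 plus LTα1β2 over LTα1β2 gave 0.18 (adjusted p = 0.232).

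Feedback genes of NF-kB had another pattern. Tnfaip3, which encodes the inhibitor A20, had 291 and 310 CPM with LCL161 plus LTα1β2, 51.8 and 66.6 CPM with LTα1β2, and 57.2 and 54.8 CPM with vehicle. It rose by 2.34 with LCL161 plus LTα1β2 against LTα1β2 (adjusted p = 5.62e-05) and by 2.43 against vehicle (adjusted p = 8.79e-06), whereas LTα1β2 over vehicle gave 0.08 (adjusted p = 0.716). Nfkb2, the subunit of the non-canonical pathway that cIAP loss is known to switch on, rose by 2.26 (adjusted p = 2.8e-05) and 2.49 (adjusted p = 3.59e-06) in these 2 comparisons, and Nfkbia, the inhibitor IkB-alpha, by 2.25 (adjusted p = 0.000121) and 2.54 (adjusted p = 1.44e-05). For LTα1β2 over vehicle they gave 0.23 (adjusted p = 0.172) and 0.28 (adjusted p = 0.226). Counts of Nfkb2 were fractional in all 6 libraries. Cebpb, which encodes a C/EBP factor, had 7.88 and 92.4 CPM with LCL161 plus LTα1β2, 132 and 129 CPM with LTα1β2, and 2.45 and 3.03 CPM with vehicle. It rose in the LTα1β2 group over vehicle (5.58, adjusted p = 0.00734) and with both agents over vehicle (4.19, adjusted p = 0.0126), and the libraries with LCL161 lay far apart. Without vehicle replicate 1 neither call of Cebpb held (5.42, adjusted p = 0.059, and 4.002, adjusted p = 0.0738). The call with both agents was also lost without vehicle replicate 2 (4.31, adjusted p = 0.0587) and with limma voom (3.28, adjusted p = 0.0904, the highest of its alternatives), and the change was 1.46 without LCL161 plus LTα1β2 replicate 2.

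The gene nearest in pattern was sought for each chemokine, as the smallest distance between log2 CPM values centred on the mean of each gene over the 6 libraries, among 10134 genes with at least 5 CPM on average. It was Abtb2 for Ccl2 (distance 0.425), Cdkn2b for Ccl3 (0.307), St3gal3 for Ccl4 (0.280), Wwp1 for Ccl6 (0.345), Plcxd1 for Ccl7 (0.277), Ciita for Ccl8 (0.772), Dusp4 for Ccl9 (0.905) and Ifi203 for Ccl12 (0.547). Ciita, the transactivator of MHC class II genes, had 110 and 119 CPM with LCL161 plus LTα1β2, 154 and 159 CPM with LTα1β2, and 1.53 and 1.63 CPM with vehicle. Its libraries with LTα1β2 alone lay above those with both agents, whereas those of Ccl8 lay below. Cdkn2b, a cyclin-dependent kinase inhibitor, had 12.8 and 14.6 CPM with LCL161 plus LTα1β2, 2.68 and 2.73 CPM with LTα1β2, and 5.37 and 4.65 CPM with vehicle, the same order of groups as Ccl3. Dusp4, a phosphatase of MAP kinases, had 11.2 and 12.6 CPM with LCL161 plus LTα1β2, 4.15 and 4.92 CPM with LTα1β2, and 14.8 and 12.6 CPM with vehicle.

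Scaling moved the balance of calls over all genes. With scaling by total counts instead of TMM, 28.0% of the called genes were higher for LCL161 plus LTα1β2 over LTα1β2 (41.2% with TMM), 24.6% for LCL161 plus LTα1β2 over vehicle (46.6%) and 33.0% for LTα1β2 over vehicle (54.8%). The median log2 fold changes of all genes were -0.12, -0.26 and -0.23 there. Of the changes called in the 8 chemokines, the rise of Ccl2 with LTα1β2 against vehicle was lost under that scaling (0.69, adjusted p = 0.0819), and the other calls held.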

How the data were processed

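RNA was sequenced from 6 libraries in 3 groups of 2, taken from the sample titles. The submitters' processing notes name the build GRCm38 with the aligner STAR (2.7.3a) and DESeq2 (1.26.0). Not given in the sources used here are the counting program, annotation, strand and treatment of reads with several matches. The authors deposited expected counts per gene and library, of which 66.6% of the non-zero values were whole, and these were rounded for the tests.

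The filter filterByExpr (10 reads) kept 18812 genes, holding at least 99.5% of reads in each library, and left out 36211. A group-means model over all 6 libraries was fitted with edgeR 4.0.16 in R 4.3.3 (TMM factors 0.874 to 1.15, glmQLFit and glmQLFTest, two-sided). The spread of each gene, with 3 residual degrees of freedom, was moderated with that of all tested genes. The common biological coefficient of variation was 13.6%. The SE is the log2 fold change divided by the square root of F. CPM were computed on the scaled library sizes, and levels per length with GENCODE M21 exons. The fits were tested on simulated data. Depth limits precision as given by the 3-read limit, which covers counting error only. Alternatives were total-count and relative log expression scaling, DESeq2 1.42.0, limma 3.58.1 (voom), a floor of 1 CPM in 2 libraries, no filter beyond 1 read, only the groups compared, a replicate block and leaving out each library.

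The genes and lists were chosen with earlier results of these data known. Named are all 8 chemokines, receptors, up to 3 called genes with the smallest p per other list and comparison, and the nearest pattern. Some genes that this rule names are not reported here. Ccl1 and Ccl11 are named as neighbours on the chromosome. The TATA-type motif was added after the promoter sequences were seen. Markers of T and NK cells, B cells, mast cells, dendritic cells and endothelium were also summed, and each sum was at most 16.1 CPM in every library.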

Additional observations from a re-analysis of the deposited data

How the results depend on the processing

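Of 336 log2 fold changes of the 8 chemokines (24 values, 14 alternatives each), 312 kept their direction and side of the threshold, 8 lost the call, 4 gained it and 12 changed sign, all 12 in values that were not called. With total-count scaling the sign changed for Ccl7 in LCL161 plus LTα1β2 over LTα1β2 (-0.068), in LCL161 plus LTα1β2 over vehicle (-0.11) and in LTα1β2 over vehicle (-0.039), for Dock2 (-0.0045) and Mmp9 (-0.14) with both agents over vehicle, and for Pik3r5 (-0.010), Tnfaip3 (-0.11) and Rgs1 (-0.0059) with LTα1β2 over vehicle. With no filter beyond 1 read it changed for Ccl7 (-0.084) with LCL161 plus LTα1β2 over LTα1β2, and for Ccl4 (0.072) and Mmp14 (0.029) with LTα1β2 over vehicle. That filter also gave a call for Ccl12 with LCL161 plus LTα1β2 over LTα1β2 (0.66, adjusted p = 0.0306). With only the groups compared Ccl4 in LTα1β2 over vehicle was 0.023, and at 1 CPM in 2 libraries Pik3cg in both agents over vehicle was 0.038. Leaving out each library in turn gave, for LCL161 plus LTα1β2 over LTα1β2, -0.12 to 0.83 for Ccl2 and -0.41 to 0.58 for Ccl7. It gave -0.55 to 0.068 for Ccr2 with both agents over vehicle, and for LTα1β2 over vehicle -0.38 to 0.34 for Ccl4, -0.42 to 0.63 for Ccl7, -0.17 to 0.12 for Mmp14 and -0.12 to 0.33 for Tnfaip3. The number of genes called was 2332 to 4604 for LCL161 plus LTα1β2 over LTα1β2 (4832 with all libraries, lowest without LTα1β2 replicate 2), 4885 to 7285 for both agents over vehicle (7431, lowest without vehicle replicate 1) and 1930 to 4933 for LTα1β2 over vehicle (4401). In this last comparison it was 1930 and 2807 without vehicle replicate 1 or 2, and 2457 and 2499 without LTα1β2 replicate 1 or 2. With the replicate number as a block the counts were 4629, 7308 and 4144, and 4, 6 and 5 of the 8 chemokines were called, the rise of Ccl2 with LTα1β2 being lost (0.83, adjusted p = 0.0571). Same-numbered libraries deviated together only weakly (r = 0.16 for LCL161 plus LTα1β2 with LTα1β2, 0.094 with vehicle, and 0.14 for LTα1β2 with vehicle, across 18812 genes), and no label pairs them. The cause of these changes was not tested. With 2 libraries a group, the spread of each gene has 3 residual degrees of freedom, and edgeR moderates it with that of all tested genes. Few reads underlie Ccl8 in vehicle, Ccl17 in LCL161 plus LTα1β2 and LTα1β2, and Ccl22 in vehicle and LTα1β2.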

Other observations

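Receptors for CC chemokines signal through G proteins, the lipid kinase PI3K-gamma and Rac GTPases. Of 14 genes of this machinery, 4 rose and 3 fell with LCL161 plus LTα1β2 against LTα1β2, 5 rose and 1 fell with both agents against vehicle, and 6 rose and 2 fell with LTα1β2 against vehicle. Of all tested genes, 10.6% rose and 15.1% fell, 18.4% rose and 21.1% fell, and 12.8% rose and 10.6% fell in these comparisons. The median log2 fold changes of the list were -0.00036, 0.35 and 0.19. Pik3r5, the regulatory subunit of PI3K-gamma, had 412 and 449 CPM with LCL161 plus LTα1β2, 161 and 183 CPM with LTα1β2, and 152 and 151 CPM with vehicle. It rose by 1.33 on the log2 scale against LTα1β2 (edgeR adjusted p = 0.000168) and by 1.51 against vehicle (adjusted p = 2.26e-05). The catalytic subunit Pik3cg had 95.7 and 97.3 CPM with LCL161 plus LTα1β2, 66.7 and 70.1 CPM with LTα1β2, and 94.6 and 100.04 CPM with vehicle, and was lowest with LTα1β2 alone. Gng2, a G protein gamma subunit, went the other way, with 42.4 and 38.1 CPM with LCL161 plus LTα1β2, 91.8 and 81.6 CPM with LTα1β2, and 53.5 and 61.7 CPM with vehicle. It fell by 1.11 against LTα1β2 (adjusted p = 0.000664). Rac2, the Rac GTPase of blood cells, rose by 1.10 with both agents (adjusted p = 0.000202) and by 0.73 with LTα1β2 (adjusted p = 0.00389) over vehicle. Its rise with LCL161 plus LTα1β2 against LTα1β2 (0.37, adjusted p = 0.0486) held in only 6 of 14 alternatives. Its activator Dock2 rose by 0.65 with LTα1β2 over vehicle (adjusted p = 0.00208). Dock2 fell by 0.34 with LCL161 plus LTα1β2 against LTα1β2 (edgeR adjusted p = 0.0272), a call that held in 10 of 14 alternatives. With both agents over vehicle Dock2 rose by 0.31 (edgeR adjusted p = 0.029), which held in only 5 of 14. Rgs1, which dampens G protein signals, had 75.7 and 72.9 CPM with LCL161 plus LTα1β2, 59.5 and 61.6 CPM with LTα1β2, and 53.2 and 53.3 CPM with vehicle. It rose by 0.48 with both agents over vehicle (adjusted p = 0.00479), which was 0.17 with total-count scaling (adjusted p = 0.206, the highest of 14 alternatives).

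Several proteases trim CC chemokines and alter their activity. Of 7 such genes, 2 rose and 1 fell with LCL161 plus LTα1β2 against LTα1β2, 1 rose and 2 fell with both agents against vehicle, and none rose and 3 fell with LTα1β2 against vehicle. Over all tested genes, 10.6% rose and 15.1% fell, 18.4% rose and 21.1% fell, and 12.8% rose and 10.6% fell in these comparisons. The medians were 0.60, 0.17 and -0.37. Mmp12, the macrophage metalloelastase, had 140 and 115 CPM with LCL161 plus LTα1β2, 106 and 62.6 CPM with LTα1β2, and 375 and 403 CPM with vehicle. It fell by 1.61 with both agents (adjusted p = 0.00099) and by 2.21 with LTα1β2 (adjusted p = 0.000582) against vehicle. Mmp14, a membrane-bound metalloproteinase, had 756 and 885 CPM with LCL161 plus LTα1β2, 339 and 391 CPM with LTα1β2, and 383 and 375 CPM with vehicle. It rose by 1.17 against LTα1β2 (adjusted p = 0.000467) and by 1.11 against vehicle (adjusted p = 0.000218). Mmp2, a gelatinase that stromal cells make in quantity, had 34.3 and 41.8 CPM with LCL161 plus LTα1β2, 65.3 and 99.9 CPM with LTα1β2, and 192 and 152 CPM with vehicle. It fell by 1.12 against LTα1β2 (adjusted p = 0.00876) and by 2.17 against vehicle (adjusted p = 0.000178), beside the fall of the stromal markers, whose part in this was not tested. Mmp9, the other gelatinase, rose by 0.54 with LCL161 plus LTα1β2 against LTα1β2 (edgeR adjusted p = 0.0068). That call held in 13 of 14 alternatives and was lost without LTα1β2 replicate 2, where the change was 0.47. Mmp9 fell by 0.37 with LTα1β2 against vehicle (edgeR adjusted p = 0.0313), which held in 9 of 14 alternatives.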
